A study of Homo sapiens with 15 samples.

Results

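The terminal 2 Mb of the human autosomes, the subtelomeric stretches that run from the first or last mapped base inward, were read in 15 Pt-exo-seq libraries from a pair of ovarian cancer cell lines. The ends were taken by position alone: every window of chromosomes 1 to 22 that lay wholly within 2 Mb of the start of the chromosome, or within 2 Mb of its last window, was a member. Of the 44 autosome ends, 39 were kept, and the short-arm ends of 13, 14, 15, 21 and 22, which averaged less than 1 read per window in every library, were left out. The 39 ends held 86662 overlapping windows of 1 kb, out of 3201158 windows on the autosomes (2.71%) and 3439652 in the whole count table. Windows 2 to 10 Mb from the same ends, 346626 in all, served for comparison and are called the flank.

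PEO1 and PEO4 are established lines grown from high-grade serous ovarian cancer, a matched pair from before and after resistance arose, of which PEO1 carries the label of clinical platinum sensitivity and PEO4 that of clinical resistance. Each of 5 groups had 3 libraries: PEO1 untreated, PEO1 with 16 µM cisplatin, PEO4 untreated, PEO4 with 16 µM cisplatin and PEO4 with 32 µM cisplatin. In Pt-exo-seq, sheared DNA is digested by an exonuclease that stops at a platinum adduct, the platinum is then displaced, and the protected fragments are sequenced, so that in an untreated library the reads are the background of the assay. Each line stands for 1 tumour, copy number was not among the measurements used here, and a difference between the lines therefore cannot be told apart from a difference in the number of DNA copies. No source says whether replicates came from separate cultures, so that p-values measure the spread between these libraries, which may be technical.

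Telomeres close the chromosome with tandem TTAGGG repeats bound by the shelterin proteins. The subtelomeric DNA inside them is a patchwork of segments duplicated between different chromosome ends, followed inward by gene-rich and GC-rich sequence. Cisplatin binds the N7 position of purines and mostly joins neighbouring guanines on 1 strand, so that GG dinucleotides are its commonest target and the G-rich telomeric strand holds a run of such sites. Reads from duplicated subtelomeric segments cannot be placed on a single end with certainty.

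A pair of stretches of the GRCh37 reference (hg19), both written on the plus strand, show the extremes of base composition among the ends. They span chr16:746100-746249 in the most GC-rich end and chr3:684000-684149 in the most GC-poor one. Runs of adjacent guanines, or of adjacent cytosines where the guanines lie on the other strand, are in capitals.
16p window: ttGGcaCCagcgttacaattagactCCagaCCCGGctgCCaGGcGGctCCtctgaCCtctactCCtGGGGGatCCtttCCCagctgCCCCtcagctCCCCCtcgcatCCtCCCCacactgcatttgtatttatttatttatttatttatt
3p window: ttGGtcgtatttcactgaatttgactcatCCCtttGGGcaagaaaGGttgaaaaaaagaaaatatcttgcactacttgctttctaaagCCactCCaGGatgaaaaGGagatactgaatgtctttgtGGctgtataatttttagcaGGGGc
The 16p stretch held 30 GG or CC dinucleotides in 150 bases and the 3p stretch 14. The full 16p window that begins there drew 14, 4 and 20 reads in untreated PEO1 and 6, 12 and 12 in untreated PEO4, while the 3p window drew 4, 14 and 38 and then 21, 24 and 33. Single windows were therefore too shallow to compare, and all comparisons use sums over ends, 100 kb bins or gene bodies.

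Over all 39 ends, GC content was 48.9%, against 44.6% in the flank and 40.8% over all autosomal windows outside the ends. GG and CC dinucleotides followed the same order, at 14.7, 12.3 and 10.3 per 100 bases, and CpG dinucleotides stood at 2.15, 1.41 and 0.962 per 100 bases. Single ends ranged from 36.8% GC at 3p, with 2 protein-coding genes, to 57.5% GC at 16p, with 84. The ends held 1233 of the 20098 protein-coding genes. Windows without a read in any library made up 6.36% of the end windows and 1.21% of the flank windows, and 2378 of these 5515 empty end windows had at least 500 known bases in the reference.

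The libraries held between 27705392 and 56643611 counts each. The ends took 2.37% ± 0.19 of the PEO1 counts without drug and 2.60% ± 0.35 with it (SD, n = 3). Of the PEO4 counts they took 2.88% ± 0.14 without drug, 2.60% ± 0.32 at the lower dose and 2.65% ± 0.30 at the higher. Libraries within a group differed in how their counts ran with GC content. Over 2 Mb segments tiled from both ends of each chromosome, the slope of the log2 ratio to the line's untreated mean was 0.41 per 10 points of GC content in replicate 1 of PEO1 at 16 µM, −0.47 in replicate 1 of PEO4 at 16 µM, −0.44 in replicate 2 and −0.35 in replicate 3 of PEO4 at 32 µM, and −0.18 in replicate 1 of untreated PEO1. In the other 10 libraries it lay between −0.11 and 0.11. Because the ends are GC-rich, results are also given from a fit with a GC offset, and those for whole ends with single libraries left out. In the fit with the offset, a smooth curve against GC content is removed from each library. The curve follows the library's log count less the mean of the feature over all 15 libraries. It is fitted over all tested features, the ends among them, so that a change shared by the GC-rich ends can be partly removed. A difference between the lines that runs with GC content can be partly removed too.

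Read density fell steeply in the outermost 100 kb of the chromosomes and was near the autosomal mean over the rest of the terminal 2 Mb. In the outermost 100 kb the mean count per window, as a log2 ratio to the autosomal mean of the library, had group means from −1.44 in PEO1 at 16 µM to −1.30 in untreated PEO4, with SDs of 0.05 to 0.11. There 52.9% of windows were empty in all libraries, and GC content was 45.0%. From 100 to 500 kb the group means rose to between −0.19 and 0.05, and 10.0% of windows were empty. Between 1 and 2 Mb they lay between −0.07 and 0.22, at a GC content of 49.5%, and between 8 and 10 Mb they lay between 0.11 and 0.21, at 43.1%. In the outermost 100 kb the treated libraries overlapped the untreated ones of the same line at each dose.

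**Figure D1:**
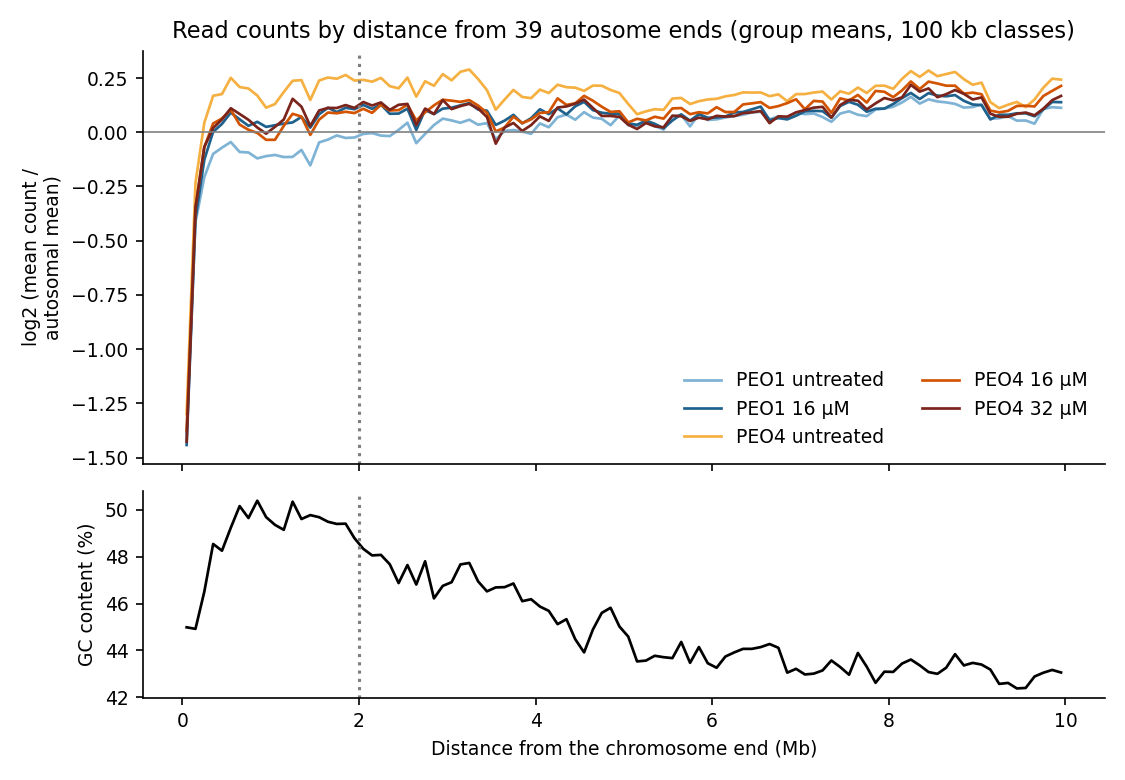
Upper panel: log2 of the mean read count per window over the autosomal mean of the library, averaged over the 3 libraries of each group, against distance from the chromosome end in Mb, in classes of 100 kb over 39 ends. Lower panel: GC content in percent of the same classes. All groups drop below −1.29 in the first 100 kb, and the dotted line marks the inner border of the terminal 2 Mb.

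Set against the flank, the ends carried slightly fewer reads per window in every library. The log2 ratio of mean count per window, ends over flank, was −0.27, −0.19 and −0.16 in the untreated PEO1 libraries, and −0.03, −0.10 and −0.06 in the untreated PEO4 libraries. In PEO1 at 16 µM it was −0.004, −0.18 and −0.16. In PEO4 it was −0.25, −0.10 and −0.10 at 16 µM and −0.02, −0.14 and −0.13 at the higher dose. The values of the 2 untreated groups did not overlap, whereas each treated group overlapped the untreated group of its line. Unknown bases made up 3.63% of the ends and 0.62% of the flank. Without windows of under 500 known bases, the ratio rose above 0 in replicate 1 of PEO1 at 16 µM (0.040), of untreated PEO4 (0.015) and of PEO4 at 32 µM (0.020). It stayed below 0 in all other libraries.

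**Figure D2:**
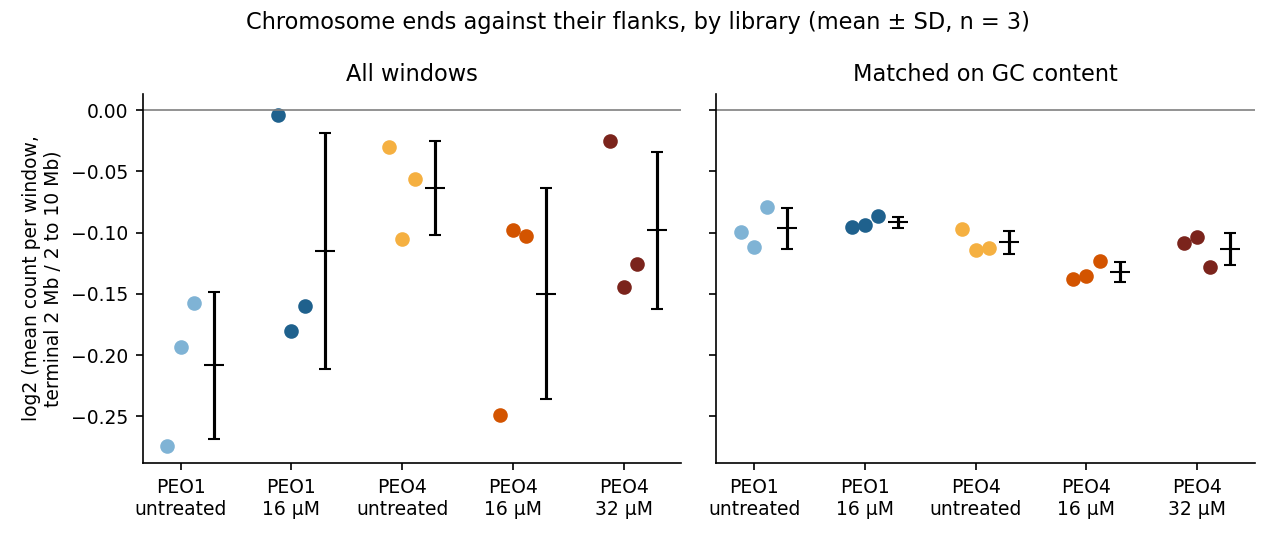
Points: log2 ratio of the mean read count per window in the terminal 2 Mb to that 2 to 10 Mb from the same ends, for each library; bars: group mean ± SD (n = 3). Left, all windows, with group means from −0.21 to −0.06; right, windows compared within classes of equal GC content, where the 15 libraries lie between −0.138 and −0.079.

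Compared within GC classes of 2 percentage points, the ratio narrowed to between −0.138 and −0.079 over all 15 libraries. The group means were then −0.097 ± 0.017 for PEO1 without drug and −0.092 ± 0.0045 with it (SD, n = 3). For PEO4 they were −0.108 ± 0.0095 without drug, −0.132 ± 0.0079 at the lower dose and −0.113 ± 0.013 at the higher. The untreated lines, separate without matching, then overlapped. The PEO4 libraries at 16 µM, at −0.138, −0.135 and −0.123, all lay below the untreated PEO4 libraries, at −0.097, −0.114 and −0.112. The other treated groups overlapped the untreated group of their line. No test was run on these ratios. Among single ends, 19p and 1p had the lowest ratios to their flanks in all groups, at group means of −1.13 to −0.87 and −0.94 to −0.68. The 1p end had the most windows empty in all libraries, 544. At 2q the ratio was above 0 in all groups, at 0.09 to 0.28. At 8q it was −0.85 ± 0.15 in untreated PEO1 and −0.03 ± 0.07 in untreated PEO4, and at 12p it was −0.53 ± 0.01 and 0.04 ± 0.03.

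The telomere repeats themselves were thinly covered. Within the ends, 48 windows in 27 ends held an array of at least 4 exact tandem copies of TTAGGG or CCCTAA. Of these, 39 had reads in at least 1 library and 9 had none. Over the libraries they averaged 3.401 reads per window, against 10.8 for all end windows and 12.5 for the 34 windows with such arrays elsewhere on the autosomes. Summed over the 48 windows, the counts per 1000000 of a library's counts (CPM) were 4.79, 3.54 and 3.46 in untreated PEO1, and 4.68, 3.64 and 4.65 in PEO1 at 16 µM. In PEO4 they were 5.34, 4.57 and 4.96 without drug, 3.49, 3.91 and 6.48 at the lower dose, and 5.77, 4.15 and 3.95 at the higher. Treated and untreated libraries of the same line overlapped at each dose. Many telomeric reads cannot be placed on 1 end, and how the authors treated such reads is not given in the sources used here, so that these sums describe the mapped reads and not the telomeres of the cells. The study also filtered reads against regions blacklisted by ENCODE and removed duplicate reads. The effect of these steps on the repeat windows was not tested.

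The first comparison asked where the untreated lines differed at their chromosome ends. PEO4 held more reads than PEO1 at 11 ends and fewer at 5 (edgeR quasi-likelihood test, Benjamini-Hochberg adjusted p under 0.05 over all 1460 segments of 2 Mb). These 16 of 39 ends stood against a background of 30.1% of all segments called, 16.2% higher and 13.9% lower. The differences at 8q, 21q, 17q, 20q and 6p, all higher in PEO4, and at 1q and 20p, lower in PEO4, were at least 1 in size on the log2 scale. Levels are given as CPM of the reads in all segments after TMM scaling.

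The 8q end, which carries RECQL4 and PARP10 among 76 protein-coding genes, held 393, 495 and 544 CPM in untreated PEO1 and 2034, 1779 and 2041 CPM in untreated PEO4. Every PEO4 library lay above every PEO1 library, and the log2 difference was 2.03 ± 0.20 (SE; edgeR, adjusted p = 1.81e-06). The 21q end, with 23 genes, held 326, 368 and 398 CPM against 943, 858 and 918 CPM in PEO4, a log2 difference of 1.32 ± 0.14 (edgeR, adjusted p = 4.16e-06). At 17q, which holds FASN and FAAP100, PEO1 had 818, 1052 and 1078 CPM and PEO4 had 2324, 1973 and 2296 CPM, a log2 difference of 1.16 ± 0.21 (edgeR, adjusted p = 5.93e-04). At 20q, the end of RTEL1, the values were 495, 695 and 691 CPM against 1326, 1144 and 1319 CPM, a log2 difference of 1.01 ± 0.22 (edgeR, adjusted p = 2.78e-03). At all 4 ends the groups did not overlap.

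In the other direction, the 1q end held 657, 643 and 651 CPM in untreated PEO1 and 323, 331 and 319 CPM in untreated PEO4, a log2 difference of −1.004 ± 0.03 (edgeR, adjusted p = 2.11e-11). Among its 59 genes are olfactory receptors of the OR2 group. At 20p, where beta-defensin genes lie at the tip, PEO1 had 789, 886 and 870 CPM and PEO4 had 431, 408 and 430 CPM (log2 difference −1.004 ± 0.09; edgeR, adjusted p = 4.92e-07). At 22q the values were 685, 819 and 827 CPM against 434, 389 and 432 CPM (−0.89 ± 0.17; edgeR, adjusted p = 9.80e-04). At 3q they were 1121, 1229 and 1209 CPM against 814, 774 and 818 CPM (−0.57 ± 0.08; edgeR, adjusted p = 4.26e-05). The small SE of 1q, whose GC content of 40.2% is among the lowest of the ends, contrasts with the wide SEs of the GC-rich ends 8q, 17q and 20q.

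**Figure D3:**
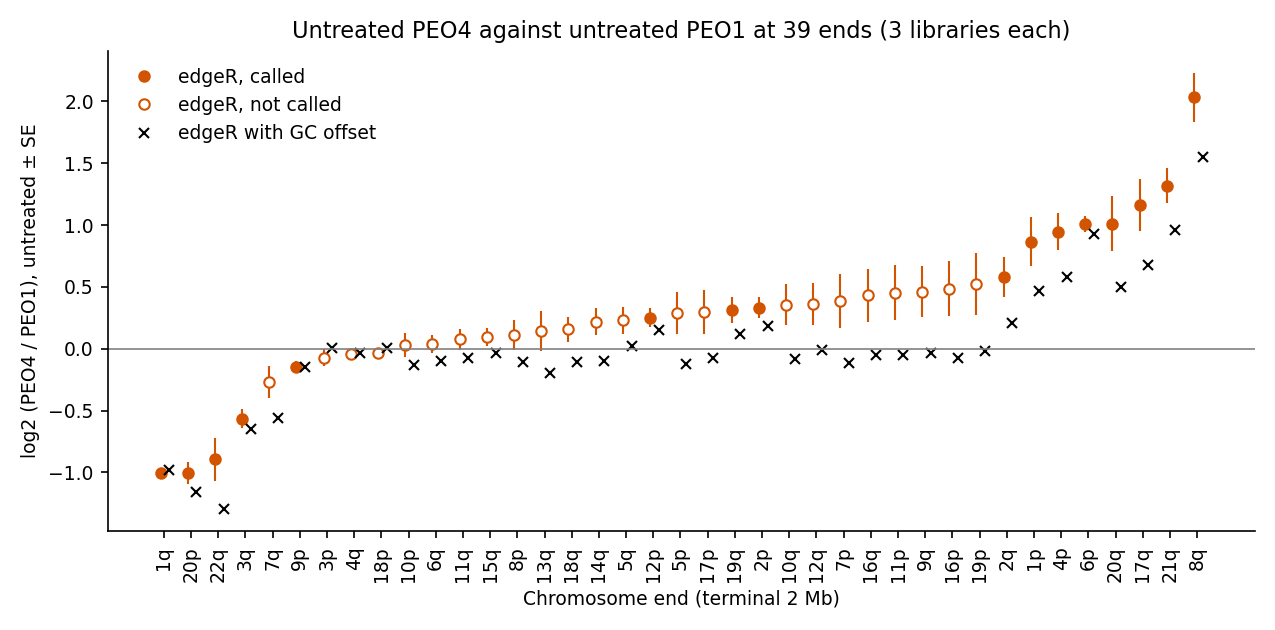
Log2 difference of untreated PEO4 over untreated PEO1 for the 39 ends, ordered by size, 3 libraries each. Circles with bars: edgeR estimate ± SE, filled for the 16 ends with adjusted p under 0.05; crosses: the estimate with a GC offset per library, which lies lower than the circle at most GC-rich ends and keeps the order of 8q (1.55) and 21q (0.96) at the top.

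With the GC offset, the same 16 ends were called with the same direction and 13 more were called, all of them lower in PEO4. The count became 11 higher and 18 lower, beside 45.3% of all segments. The median over the ends moved from 0.29 to −0.05, while that over all segments stayed near 0. Leaving out 1 library at a time without the offset left 12 to 16 ends called, and the calls at 2q, 9p, 12p and 19q were those lost. With the offset the 8q difference became 1.55, 21q 0.96, 17q 0.67, 20q 0.50, 1q −0.98, 20p −1.16, 22q −1.30 and 3q −0.65.

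Most of these differences were not confined to the terminal 2 Mb. In 2 Mb steps inward from the end, the log2 difference of untreated PEO4 over PEO1 at 17q was 1.16, 1.08, 1.02, 1.05 and 1.34, and at 6p it was 1.01, 1.03, 1.01, 1.06 and 0.92. At 1q it was even, at −1.004, −0.90, −0.98, −1.10 and −1.04. At 8q the difference was graded instead, with 2.03 and 1.85 in the outer 4 Mb and 1.16, 0.94 and 0.99 further in. Under the GC offset the steps were 0.66 to 0.99 at 17q, 0.93 to 0.99 at 6p and −1.09 to −0.95 at 1q, and those of 8q were 1.55, 1.39, 0.94, 0.92 and 1.04. Within the ends, 276 of 759 bins of 100 kb were called, 186 higher and 90 lower, beside 25.0% of all 28203 bins tested (14.3% higher and 10.7% lower). The GC offset gave 319 calls, 166 higher and 153 lower, beside 27.4% of all bins. Every bin was called higher at 4p, 6p, 8q, 17q, 20q and 21q, and every bin was called lower at 1q, 20p and 22q, all of them also with the offset.

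A single bin was named from each of the 3 ends that held the largest bin differences in each direction. At 8q, where all 19 bins had log2 differences between 1.47 and 2.24, the bin of chr8:145664100-145765000 holds the helicase gene RECQL4 and TONSL, which acts at stalled replication forks, and was the highest at 2.24 ± 0.25, or 1.46 with the GC offset. At 21q, the bin of chr21:46629900-46730800, with the RNA editing enzyme gene ADARB1 and POFUT2, had a log2 difference of 1.49 ± 0.15, or 1.14 with the offset. At 17q, the bin of chr17:79395300-79496200, with the actin gene ACTG1, BAHCC1 and FSCN2, had 1.35 ± 0.24, or 0.62 with the offset. The lower bins held the defensin gene DEFB125 at the tip of 20p (−1.26 ± 0.17), the olfactory receptors OR2T1, OR2T2, OR2T3, OR2T6 and OR2T7 at 1q (−1.19 ± 0.12) and BRD1, ZBED4 and ALG12 at 22q (−1.11 ± 0.17), which became −1.19, −1.11 and −1.45 with the offset. All were called by edgeR after adjustment, and members of the OR2T cluster are near copies whose reads may be shared.

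Ends that looked modest as a whole could hold a step between unlike stretches, and 3 such ends, 2p, 2q and 12p, were chosen after their values were seen. At 12p the outer 15 bins had log2 differences of 0.53 to 1.19, 14 of them called higher, and the inner 5 had −0.99 to −0.67, all called lower. As mean CPM per bin, the outer stretch held 20.02, 21.03 and 21.43 in untreated PEO1 against 42.7, 38.9 and 41.5 in PEO4, and the inner stretch 74.6, 85.0 and 81.7 against 45.5, 44.1 and 47.7. Within PEO1 the inner stretch was thus covered more densely than the outer one, while in PEO4 both lay close together. In 10 kb steps the log2 difference went from 0.40 at chr12:1490001-1500000 to −1.004 at chr12:1500001-1510000. Both positions lie in ERC1 (chr12:1099675-1605099), which encodes a scaffold protein of vesicle release, inside the gene body. RAD52 lies on the outer side.

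At 2q the outer 10 bins ran from −0.21 to 0.34, none called, and the inner 10 from 0.78 to 1.10, all called higher. The fall came near chr2:242190001-242200000 within HDLBP, a gene for an RNA-binding protein that spans chr2:242166679-242256476. At 2p the outer 12 bins ran from −0.08 to 0.12, none called, and the inner 8 from 0.61 to 0.80, all called higher, with the change near 1.2 Mb inside SNTG2 (chr2:946535-1371385), a syntrophin gene. In libraries with 16 µM cisplatin, the ratio of PEO4 to PEO1 showed steps at the same places. Its median was −0.01 outside and 0.45 inside at 2p, −0.11 and 0.40 at 2q, and 0.88 and −0.99 at 12p. With the GC offset, the inner bins of all 3 ends and 14 outer bins of 12p kept their calls, and 3 outer bins of 2q were called lower.

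**Figure D4:**
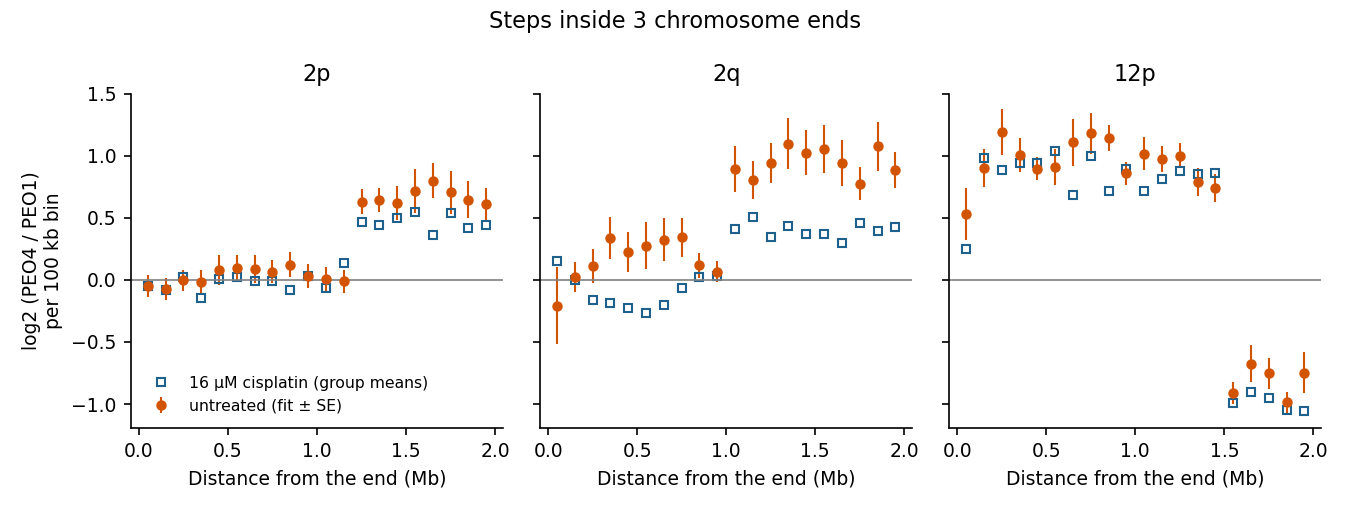
Log2 ratio of PEO4 over PEO1 in 100 kb bins against distance from the end in Mb, at 2p, 2q and 12p. Circles: untreated libraries, edgeR estimate ± SE (3 libraries each); squares: ratio of group means at 16 µM cisplatin. The level changes at 1.2 Mb in 2p, at 1 Mb in 2q and, with a change of sign, at 1.5 Mb in 12p, in both sets of libraries.

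Among the protein-coding genes of the ends, 1124 had enough reads to test, and 405 were called between the untreated lines, 294 higher and 111 lower in PEO4. That is 36.0% of them, beside 21.1% of all 18600 genes tested (12.5% higher and 8.56% lower) and 30.5% of the genes in the flank. The GC offset gave 378 calls, 232 higher and 146 lower, beside 22.5% of all genes tested. Gene values are sums of reads over the gene body without regard to strand, as CPM of all reads in gene bodies, so that overlapping genes share reads and long genes hold more. Of 12 genome and telomere maintenance genes at the ends, 5 were called higher and 0 lower, where 12.5% of all genes tested were called higher and 8.56% lower. These 5 lie at 8q, 17q, 20q and 12p. At those ends 70 of 70, 53 of 60, 39 of 48 and 9 of 14 tested genes were called higher in turn, and 4 lower at 12p.

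RECQL4, a helicase of replication and repair at 8q, had 2.34, 2.20 and 2.96 CPM in untreated PEO1 and 11.8, 10.7 and 6.86 CPM in untreated PEO4 (log2 difference 1.97 ± 0.29, SE). PARP10 at 8q, a mono-ADP-ribosyltransferase, had 15.2, 20.4 and 29.1 CPM against 88.0, 84.6 and 80.1 CPM (1.97 ± 0.17). FAAP100 at 17q, a subunit of the Fanconi anaemia core complex that acts on DNA crosslinks, had 10.2, 13.1 and 15.7 CPM against 35.0, 28.4 and 28.4 CPM (1.24 ± 0.21). In each of the 3 genes the untreated lines were fully separated. RAD52, a strand annealing factor on the outer side of the 12p step, had 35.8, 37.5 and 39.1 CPM against 78.1, 65.7 and 66.998 CPM (0.91 ± 0.12). RTEL1 at 20q, the helicase that unwinds telomere loops, had 21.6, 31.4 and 30.8 CPM against 44.9, 48.9 and 50.2 CPM (0.78 ± 0.19). All 5 passed the edgeR test after adjustment also with the GC offset, at 1.28, 1.62, 0.69, 0.89 and 0.30.

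The 7 others did not pass, and with the GC offset all 7 differences lay below 0, TELO2 at −0.37 and TERT at −0.18 among them. Without the offset their values were as follows. TERT, the catalytic subunit of telomerase at 5p, stood at 26.6, 32.2 and 32.5 CPM in PEO1 and 42.0, 33.5 and 36.2 CPM in PEO4 (log2 difference 0.29 ± 0.15), with a gap between the lines smaller than the range within PEO4. The differences of TELO2, which stabilises the checkpoint kinases, and of the glycosylase gene MPG, both at 16p, were 0.23 ± 0.23 and 0.55 ± 0.30. Those of POLE, the leading-strand polymerase, and of the checkpoint gene CHFR, both at 12q, were 0.21 ± 0.13 and 0.12 ± 0.12. FANCA at 16q stood at 0.18 ± 0.15, and RPA1 at 17p, a subunit of the single-strand binding complex, at −0.10 ± 0.15.

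Of 10 growth signalling and cancer genes, 9 lay in the ends and 3 were called higher and 0 lower, beside the same 12.5% and 8.56% of all genes tested. These were FASN, the fatty acid synthase gene at 17q (1.36 ± 0.23), IRF4, a transcription factor gene of lymphoid cells at 6p (1.20 ± 0.25), and the receptor gene FGFR3 at 4p (1.15 ± 0.25). All 3 were still called with the GC offset, at 0.64, 1.07 and 0.43. Of all tested genes at these ends, 53 of 60 were called higher at 17q, 4 of 5 at 6p and 30 of 32 at 4p. In the forkhead group at 6p, FOXF2 was called at 1.20 ± 0.33, but not with the GC offset (0.62, adjusted p = 0.217 in edgeR) or without replicate 1 of untreated PEO4 (1.01), and FOXC1 had 1.78 ± 0.75 (edgeR, adjusted p = 0.0995). FOXQ1 stayed below the count minimum. None of the 4 mucin genes at 11p, of the 5 granule protein genes at 19p or of the 2 alpha-globin genes tested at 16p was called. Their log2 differences ran from 0.23 to 0.54, from 0.13 to 0.83 and from 0.05 to 0.28. Most turned below 0 with the GC offset, and the ranges were −0.45 to −0.09, −0.36 to 0.37 and −0.40 to 0.05.

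Genes of duplicated subtelomeric families were read with least certainty. The list was made by the start of gene symbols, without a check that each gene is duplicated. WASHC3, WASHC4 and WASHC5, outside the ends, are among its members. Of 22 listed, 16 lay in the ends and 6 passed the count minimum, none of them called. The log2 differences ran from −0.63 (OR4F6) to −0.12 (TUBB8B), or −0.45 to 0.03 with the GC offset. FRG1 at 4q, next to the repeat array of facioscapulohumeral dystrophy, had −0.41 ± 0.25, and the tubulin gene TUBB8 at 10p had −0.49 ± 0.20, which became −0.20 and −0.43. DUX4, FRG2, OR4F16, OR4F21, OR4F29 and OR4F3 had no read in any library, which allows up to 3 reads a library, or 0.102 to 0.226 CPM on the scale of gene bodies. All of these have near copies elsewhere in the genome, so that their counts are uncertain.

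The next comparisons asked whether cisplatin shifted reads toward or away from the ends. No end was called in any of the 6 treatment comparisons, and neither was any other segment (0% of 1460; edgeR, adjusted p under 0.05). DESeq2 called 0 ends too. At an unadjusted p under 0.05, 0 of 39 ends passed in each of the 3 comparisons with untreated libraries. Over all 1460 segments the shares that passed were 0.62% in PEO1, and in PEO4 0.41% at 16 µM and 7.60% at 32 µM. The higher against the lower dose in PEO4 gave 1 such end, beside 0.62% of all segments. The difference in response of PEO4 at its higher dose from PEO1 gave 1, beside 2.60%. That at 16 µM in both lines gave 2, beside 0.96%. None of the 759 bins and none of the 1124 genes of the ends was called either, beside 0% of all bins and genes. At an unadjusted p under 0.05, 11.6% of end bins passed in PEO1, beside 3.14% of all bins. In PEO4 it was 3.95% beside 2.07% at 16 µM and 5.27% beside 9.23% at 32 µM. The difference in response gave 18.8% beside 7.49% at 32 µM in PEO4 and 23.8% beside 3.95% at equal dose. Genes gave 18.9% beside 5.78% in PEO1 and 2.67% beside 6.53% in PEO4 at 32 µM. With the GC offset the bin shares for response were 6.32% beside 6.30% and 6.59% beside 5.95%.

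The ends nonetheless leaned in opposite ways in the lines. In PEO1 at 16 µM the log2 change had a median of 0.13 over the ends and was above 0 at 33 of 39, whereas the median over all segments was 0.00. In PEO4 the median was −0.17 at 16 µM, with 2 ends above 0, and −0.14 at 32 µM, with 4 above 0. The changes ran with base composition: across the 39 ends, which share the same libraries, Pearson's r between GC content and the change was 0.94 in PEO1, and in PEO4 it was −0.96 at the lower and −0.84 at the higher dose. The 3p end, at 36.8% GC, changed by −0.05, 0.02 and 0.09 in these comparisons, and 16p, at 57.5%, by 0.38, −0.27 and −0.18.

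**Figure D5:**
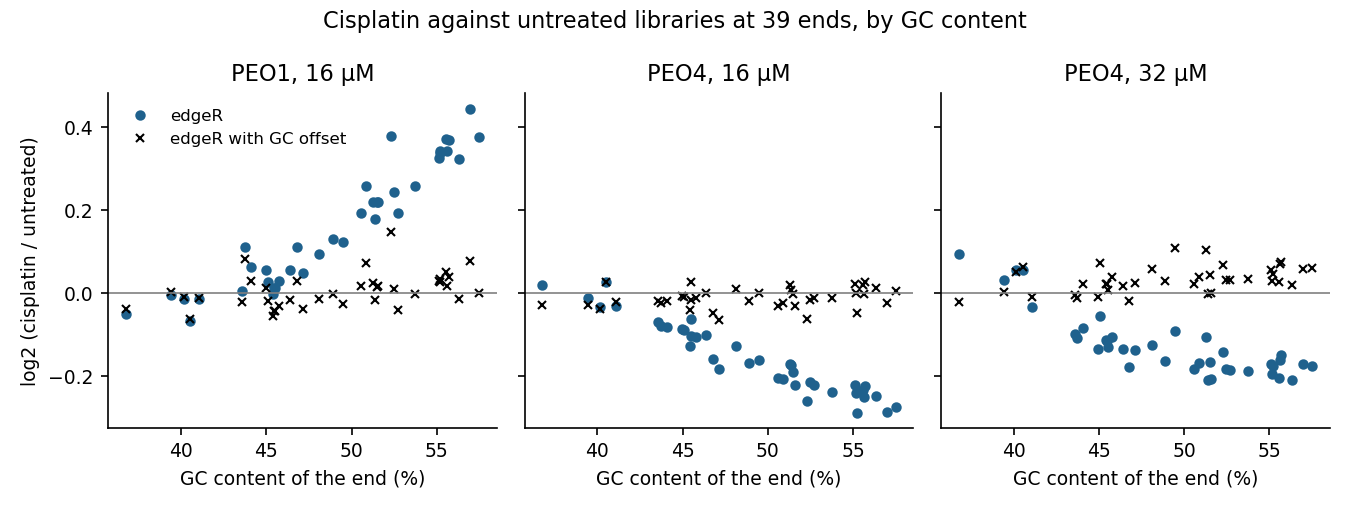
Log2 change at cisplatin over untreated libraries against GC content in percent, 1 point per end (39 ends); left panel PEO1, middle and right panels PEO4 at the lower and the higher dose. Dots: edgeR estimate, rising with GC content in PEO1 and falling in PEO4; crosses: estimate with a GC offset per library, with medians of 0.00, −0.01 and 0.03.

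Internal segments were set beside the ends by GC content. In the middle and the GC-rich classes their medians had the sign of those of the ends, while in the GC-poor class the medians of the ends lay below 0 in PEO4 and those of the internal segments near 0. Split into 3 classes of 13 ends each, the ends from 36.8% to 45.5% GC had a median change of 0.004 in PEO1, and in PEO4 of −0.07 at the lower and −0.08 at the higher dose. The 923 internal segments in their GC range had −0.001, 0.001 and −0.005 in this order. The middle class, from 45.8% to 51.6% GC, had 0.13, −0.17 and −0.16, and its 162 internal counterparts had 0.11, −0.13 and −0.18. The class from 52.3% to 57.5% had 0.34, −0.24 and −0.18, and the 7 internal segments as rich in GC had 0.26, −0.22 and −0.22.

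The lean of the ends also moved when single libraries were left out, some of them with counts that ran steeply with GC content. Replicate 1 of PEO4 at 32 µM, left out as well, had a slope of only 0.04 per 10 points of GC content. Those of replicates 2 and 3 of that group were −0.44 and −0.35. Without replicate 1 of PEO1 at 16 µM the median over the ends fell from 0.13 to 0.01, and without replicate 1 of untreated PEO1 it was 0.07. Without replicate 1 of PEO4 at 16 µM it went from −0.17 to −0.05, and at 32 µM it was −0.08 without replicate 2 and −0.27 without replicate 1. The change between 32 and 16 µM had a median of 0.03, which turned to −0.09 when replicate 1 of the lower dose was left out and to −0.08 when replicate 1 of the higher dose was. The part of GC content in these changes was not tested apart from the offset. With it the medians became 0.00, −0.01 and 0.03 in the comparisons with untreated libraries, with 20, 13 and 31 of 39 ends above 0. Between 32 and 16 µM the median was then 0.04, with 36 of 39 ends above 0. In this order 20.5%, 7.69%, 28.2% and 38.5% of ends had an unadjusted p under 0.05 (edgeR). Over all segments the shares were 14.2%, 5.62%, 7.33% and 6.85%. Only 7 internal segments lay in the GC range of the 13 richest ends, which themselves enter the offset curve. These medians therefore cannot show whether the GC-rich ends changed apart from GC content.

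At single ends, the 2 with the smallest unadjusted p in each direction are given for each comparison. The 1p end held 251, 315 and 330 CPM in untreated PEO1 and 505, 322 and 339 CPM in PEO1 with cisplatin, where only replicate 1 lay clearly above the untreated range (log2 change 0.38 ± 0.20; edgeR, adjusted p = 1.00). The 21q end had a change of 0.26 ± 0.14, 4q of −0.07 ± 0.03 and 3p of −0.05 ± 0.07. In PEO4 at 16 µM the named ends were 4q (0.03 ± 0.03), 3p (0.02 ± 0.07), 8p (−0.18 ± 0.12) and 2p (−0.13 ± 0.08). At 32 µM they were 1q (0.05 ± 0.03), 4q (0.06 ± 0.03), 15q (−0.14 ± 0.07) and 5q (−0.18 ± 0.11). Between 32 and 16 µM, 1q had 0.09 ± 0.03, 18p 0.04 ± 0.03, 20p −0.07 ± 0.09 and 15q −0.05 ± 0.07. Under the GC offset the named ends other than 1p and 21q in PEO1 lay between −0.064 and 0.090, and 21q had 0.073.

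The difference in response between the lines, PEO4 at 32 µM over its untreated libraries less PEO1 at 16 µM over its own, was designed to set doses of similar total adduct load side by side. Its median over the ends was −0.29, with 4 of 39 above 0, and r with GC content was −0.97. With both lines at 16 µM the median was −0.30 and r again −0.97. With the GC offset the medians were 0.03 and −0.01. At the larger dose the named ends were 4q (0.12 ± 0.05), 1q (0.07 ± 0.04), 21q (−0.43 ± 0.20) and 3q (−0.22 ± 0.11), and at equal dose 4q (0.09 ± 0.05), 3p (0.07 ± 0.10), 21q (−0.47 ± 0.20) and 1p (−0.64 ± 0.28). Under the GC offset the differences at 21q shrank to −0.035 and −0.096 and that at 3q to −0.095. The smallest edgeR adjusted p over the ends was 0.430 and 0.854 in turn. These comparisons share their untreated and PEO1 libraries and are not independent of each other.

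With the GC offset, few ends passed adjustment. In PEO1 at 16 µM, 1p (0.15 ± 0.03; edgeR, adjusted p = 3.74e-03) and 3q (0.08) were called higher, beside 1.03% of all segments. In PEO4, 1p was called higher at 32 than at 16 µM (0.13; edgeR, adjusted p = 0.0181), beside 0.0685% of all segments. The difference in response at 16 µM in both lines was called at 1p (−0.21 ± 0.04; edgeR, adjusted p = 2.12e-03), again beside 0.0685%. These are changes of 0.08 to 0.21 on the log2 scale at 2 ends, and 1p is the end with the most empty windows. Each call was lost when certain single libraries were left out. Without replicate 1 of PEO1 at 16 µM, 1p and 3q were no longer called in PEO1 (0.11 and 0.07) and neither was the difference in response at 1p (−0.17; edgeR, adjusted p = 0.0579). The PEO1 call at 1p was also lost without replicate 2 of untreated PEO1 (0.13), and that at 3q without any 1 of the 3 untreated PEO1 libraries (0.08 to 0.09). The dose difference at 1p in PEO4 was lost without replicate 2 or 3 at 16 µM or replicate 3 at 32 µM (0.12 to 0.14).

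At the scale of 100 kb, the bin of chr4:190254600-190354600, inside 4q and without a protein-coding gene, had the smallest p for a higher response of PEO4. It held 20.8, 18.8 and 18.9 CPM in untreated PEO1 and 13.7, 19.02 and 15.9 CPM at 16 µM. In PEO4 it held 14.1, 13.4 and 14.7 CPM without drug, 15.6, 17.4 and 18.7 CPM at 16 µM and 18.2, 18.8 and 19.8 CPM at 32 µM. Both doses lay above the untreated PEO4 libraries in every replicate, and the PEO1 groups overlapped. The difference in response was 0.69 ± 0.17 at 32 µM in PEO4 and 0.56 ± 0.17 at equal dose, and neither passed adjustment (edgeR, adjusted p = 0.615 and 0.950). The GC offset gave 0.66 and 0.53.

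In the opposite direction, the bin of chr21:47130300-47230300 at 21q, within the RNA-binding protein gene PCBP3, had a response difference of −0.49 ± 0.13 at 32 µM in PEO4, or −0.33 with the GC offset. At equal dose, the bin of chr1:899100-1000000 at 1p, with the ubiquitin-like interferon gene ISG15, the agrin gene AGRN and HES4, had −1.01 ± 0.29, which became −0.19 with the GC offset. Within PEO1 at 16 µM, the bin with ADARB1 at 21q held 29.1, 18.7 and 18.9 CPM against 15.8, 16.2 and 14.7 CPM without drug, with groups that did not overlap, yet it failed adjustment (0.51 ± 0.15; edgeR, adjusted p = 1.00) and had 0.35 with the offset. The outermost bin of 3p had −0.35 ± 0.14, or −0.34 with the offset. In PEO4, the bin with ATP11A at 13q had −0.54 ± 0.19 at 16 µM, and at 32 µM a bin of 9p had 0.45 ± 0.13 and 1 of 22q −0.40 ± 0.14. With the offset these were −0.38, 0.44 and −0.21. Between the doses, the OR2T bin of 1q had 0.41 ± 0.12 and the outermost bin of 18q, with PARD6G, −0.39 ± 0.15, or 0.38 and −0.31 with the offset.

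The maintenance genes gave no call under cisplatin. In PEO1 at 16 µM their log2 changes ran from −0.004 (RPA1) to 0.67 (FAAP100), with 11 of 12 above 0 and a median of 0.21, beside 0.22 over the 1124 genes of the ends. In PEO4 the median was −0.16 at 16 µM and −0.07 at 32 µM, with 3 of 12 above 0 at each dose, beside −0.14 and −0.06 over the genes of the ends. TERT changed by 0.18, −0.18 and −0.03 in these comparisons, and RTEL1 by 0.40, −0.19 and 0.08. The medians of the 12 genes were 0.034, −0.012 and −0.013 with the GC offset, with 9, 6 and 5 of them above 0. FAAP100 in PEO1 then had 0.24, and TERT −0.12.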

How the data were processed

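Pt-exo-seq libraries of genomic DNA from PEO1 and PEO4 cells (15 libraries, 5 groups of 3) were read from 1 table of raw read counts that the authors deposited, in windows of 1 kb that start every 900 bp, so that neighbouring windows share reads. Per the labels' processing notes, the build was hg19 and the tools were Bowtie2 and Picard; versions, settings and the handling of reads with several best positions are not given in the sources used here. The study states that reads in regions blacklisted by ENCODE and duplicate reads were removed, and the share of empty windows due to this was not tested. The table held 0 columns of unknown samples. Neighbouring windows were summed without correction for their overlap.

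Chromosome ends were defined by coordinate. Counts were summed over 2 Mb segments and 100 kb bins tiled from both chromosome ends over chromosomes 1 to 22 and X, and over protein-coding gene bodies (GENCODE release 44 mapped to GRCh37, window midpoints, both strands). Each level was fitted with edgeR 4.0.16 (R 4.3.3; glmQLFit and glmQLFTest, TMM scaling, all 15 libraries, no covariate), with a minimum mean count of 50 for segments and bins and 20 for genes. p-values were adjusted by Benjamini-Hochberg over the whole table, with a threshold of 0.05, and only features of the ends were read. The log counts behind the GC offset and the correlations between libraries used a prior count of 2. Both the study and these fits compare against untreated libraries, but the study took 1 kb windows, which hold too few reads to be fitted singly here. The fits were tested on simulated counts that held no GC trend of single libraries. That test therefore cannot show how the fits behave under such trends. GC content and sequences came from the GRCh37 reference, whose 23 chromosome lengths matched the table.

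The GC offset was a lowess curve (span 0.3) on GC content per library, fitted to log count less the feature's mean over all 15 libraries. Other alternatives were DESeq2 1.42.0, RLE size factors, no count minimum, a block for replicate number, no windows of very high background, and each library left out in turn. GC matching of ends to flank used classes of 2 percentage points with at least 200 flank windows.

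Named ends were, per comparison, up to 4 per direction with adjusted p under 0.05 by size of change, or else the 2 per direction with the smallest p. Named bins were up to 3 per direction by size of change, from different ends, or else the 1 with the smallest p per direction. Genes came from 7 lists: genome and telomere maintenance, alpha-globin, mucins, granule proteins, forkhead genes, growth signalling and cancer, and duplicated families. The ends, comparisons and lists were chosen with earlier results of these data known.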

Additional observations from a re-analysis of the deposited data

Results flagged for a closer look

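With the GC offset, the response to 16 µM cisplatin at the terminal 2 Mb of 1p differed between the lines by −0.21 on the log2 scale, PEO4 less PEO1 (SE 0.04; edgeR quasi-likelihood test of the interaction, Benjamini-Hochberg adjusted p = 2.12e-03), the only 1 of 1460 segments called in that comparison. It is listed because the test of the difference itself passed its threshold. Without the offset the difference was −0.64 ± 0.28 and was not called (edgeR, adjusted p = 0.854). Left out 1 at a time under the offset, the 15 libraries gave −0.24 to −0.17, with 14 of 15 fits calling it; the exception was the fit without replicate 1 of PEO1 at 16 µM. The cause was not tested.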

How the results depend on the processing

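Counts of called ends, bins and genes between the untreated lines stayed within 1.5 times of the reported ones with RLE size factors, DESeq2, no count minimum and no windows of very high background, and the same 16 ends were called under each of these. The GC offset raised the called ends to 29, and to 28 together with the replicate block. It also gave 2 ends for PEO1 under cisplatin, 1 for the higher against the lower dose in PEO4 and 1 for the equal-dose response difference, where the fit without it gave 0, and 2, 1 and 1 with the block added. Same-numbered libraries did not regularly deviate together (correlations of −0.94 to 0.93, with 12 of 30 pairs above 0.1). Among libraries of different number, 32 of 60 pairs lay above 0.1. Deviations from a mean of 3 libraries cannot show whether libraries of the same number share a culture or batch. The replicate block alone left 15 ends, losing 19q.

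Leaving out 1 library at a time gave 12 to 16 ends, 248 to 324 bins and 350 to 429 genes between the untreated lines and 0 ends, bins and genes in all treatment comparisons. It gave end-to-flank ratios of −0.23 to −0.18 for PEO1 without drug and −0.17 to −0.082 with it, and for PEO4 of −0.080 to −0.043 without drug, −0.18 to −0.10 at the lower dose and −0.13 to −0.075 at the higher.

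The end-to-flank ratio depended on how far the end reached. With ends of 0.5 Mb it was −0.43 for PEO1 without drug and −0.39 with it, and for PEO4 −0.33 without drug, −0.38 at the lower dose and −0.36 at the higher. With ends of 1 Mb it was −0.29 and −0.16 in the untreated lines, PEO1 first, and −0.20 at the higher PEO4 dose. Leaving out windows with a mean count under 5 gave −0.094, −0.0013, 0.052, −0.033 and 0.017 in the same order of 5 groups, and matching on GC content gave −0.10 in untreated PEO1 and −0.11 in untreated PEO4. Without windows of under 500 known bases, a setting chosen after seeing the data, untreated PEO4 had −0.019.

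The change of 3p in PEO4 at 16 µM turned from 0.020 to −0.029 with the GC offset, also with the block (−0.029), and ran from −0.040 to 0.060 with single libraries left out. That of 3p in PEO1 at 16 µM ran from −0.093 to 0.0033. FOXF2 lost its call with the GC offset, at 0.62, and at 0.61 with the block.

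Depth limits single windows most: end windows averaged 7.78 to 18.0 reads per library, and 12.5% to 23.9% of them were empty in a given library. Overlapping windows, reads placed on duplicated segments and unknown copy number limit all values alike.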

Other observations

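Windows of very high background, the top 0.1% by mean count in the untreated libraries, were found 165 times in the ends, or 0.19% of end windows. They were unevenly spread, with 62 at 17q, 38 at 4p and 19 at 8q. Leaving them out changed none of the 16 calls between the untreated lines.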
